A study of Mus musculus with 16 samples.

Results

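Smooth muscle contractile genes were followed through 16 mRNA libraries made from mouse testis cells that were sorted as undifferentiated spermatogonia. The set is a list of 36 gene symbols, drawn up with earlier results of these libraries known, and all 36 stood in the table of 16383 genes. They cover the actins, the myosin motor and its kinase, thin filament proteins, proteins of the dense bodies and adhesions, 2 transcriptional regulators, membrane and calcium proteins, and 4 genes known from the muscle cells and pericytes around blood vessels (Rgs5, Notch3, Pdgfrb and Cspg4). All mice had received busulfan at 10 mg/kg, a drug that crosslinks DNA and depletes germ cells, and cells were taken on day 10. From day 3 they were injected daily for 7 days with PD0325901 at 2.5 mg/kg, which blocks the MEK kinases of the ERK pathway, or with a vehicle holding 10% DMSO. The 4 groups of 4 libraries were wild type with vehicle (WT_vehicle), wild type with PD0325901 (WT_PD), Spry4 G-KO with vehicle (KO_vehicle) and Spry4 G-KO with PD0325901 (KO_PD). Column names mark the wild-type libraries Spry4ff and the knockout ones GCRT_Spry4KO, so whatever GCRT denotes differs between the genotypes together with Spry4. The labels give neither the age of the mice, nor the number of animals per library, nor the antibodies of the sort, nor the deleted part of Spry4.

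Smooth muscle shortens when a calcium-dependent kinase phosphorylates the myosin light chain, which lets smooth muscle myosin pull on actin filaments anchored at dense bodies and membrane plaques. In the testis a thin layer of such contractile cells, the peritubular myoid cells, wraps each seminiferous tubule and moves sperm along it. Arterioles carry a second smooth muscle, and capillaries carry pericytes, which are known for Rgs5, Notch3, Pdgfrb and Cspg4. SRF with its partner myocardin switches on many contractile genes through a DNA element called the CArG box.

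Levels are given as FPKM, fragments scaled to transcript length and to each library, a unit in which genes can be compared with one another. One FPKM stood for 23.4 to 36.6 reads per kilobase of exon, and 12257 to 12805 genes per library reached 1 FPKM. The sorted cells carried the markers of undifferentiated spermatogonia: all 10 listed genes were measured in every library, and their summed level ran from 660 to 1045 FPKM. Spry4 averaged 11.01 ± 3.13 FPKM in KO_vehicle against 22.1 ± 1.66 in WT_vehicle (SD, n = 4 each, two-sided exact permutation p = 0.0286, the smallest that 4 against 4 allows), and 12.9 ± 4.71 in KO_PD against 21.5 ± 4.89 in WT_PD (exact permutation p = 0.0571). The 8 listed spermatid genes summed to 2780 FPKM in KO_vehicle 3 and to at most 132 in the other 15 libraries, so results are also given without that library where it matters. Libraries are named by group and replicate. The labels do not say that replicates came from separate animals, so every p measures the spread between these libraries.

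Acta2, smooth muscle actin (ENSMUSG00000035783, GRCm38 chromosome 19, 34241090 to 34255590, minus strand), was the most abundant member at a mean of 2069.7 FPKM. It stood at 945, 2890.4, 3154 and 1986 FPKM in WT_vehicle 1 to 4, at 571, 367, 5095 and 3035 in WT_PD, at 1751, 988, 538 and 2909.7 in KO_vehicle, and at 1803, 1345, 1800.04 and 3937 in KO_PD. The lowest and the highest of the 16 values, 13.9-fold apart, both came from wild-type mice given PD0325901. All 4 groups overlapped.

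The other members formed a wide scale of levels. Myl9, the regulatory light chain of smooth muscle myosin, had the next highest mean at 1431 FPKM, followed by the secreted matrix protein Sparcl1 at 814, the actin crosslinker filamin A (Flna) at 616, the actin-binding protein transgelin (Tagln) at 615 and the smooth muscle myosin heavy chain Myh11 at 578. Rgs5, an inhibitor of G protein signalling, was the most abundant of the 4 vascular members at 251 FPKM, with Notch3, a receptor of vascular smooth muscle, at 108, Pdgfrb, the PDGF receptor of pericytes, at 89.2 and Cspg4, the NG2 proteoglycan, at 24.5. The lowest means belonged to Ldb3, a Z-line protein, at 11.1 FPKM and to Myocd, the gene of myocardin, at 9.30. The 36 members together took 1.10% of all FPKM in KO_vehicle 3 and 7.11% in WT_PD 3, and without the 4 vascular genes 1.02% to 6.85%. All 36 passed the filter of 1 FPKM in 4 libraries, in which 12907 genes remained. In a sorted bulk sample, fewer muscle cells and less RNA per muscle cell cannot be told apart.

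**Figure D1:**
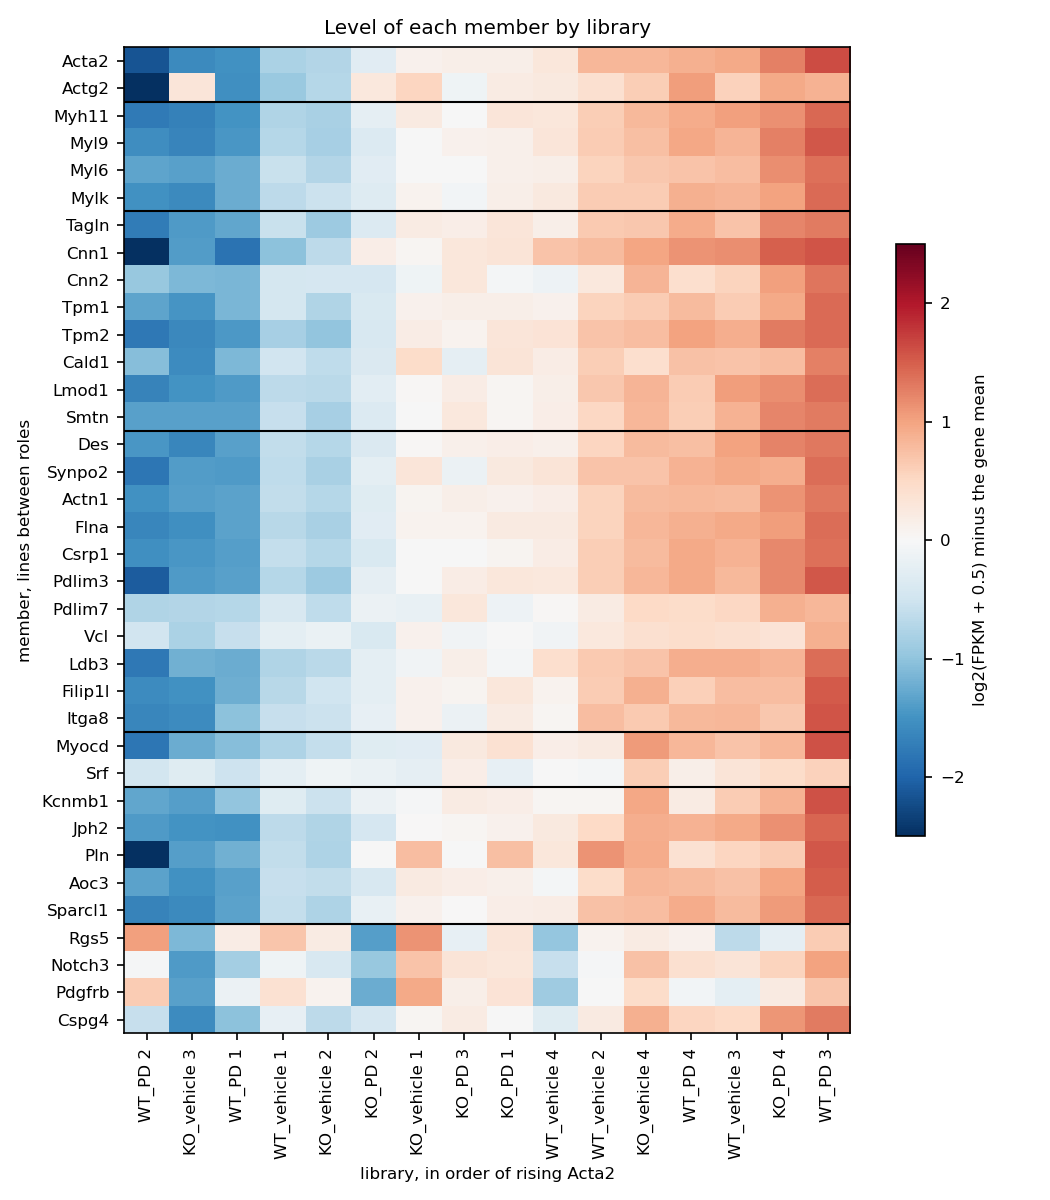
Level of the 36 members (rows, lines between the roles) in the 16 libraries (columns, in order of rising Acta2), as log2(FPKM + 0.5) minus the mean of the gene, with the darkest colours standing also for values beyond the ends of the scale. The rows from Acta2 to Sparcl1 pass from blue to red along nearly the same order of libraries, while Rgs5 and Pdgfrb, in the bottom block, do not.

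No member passed the test between any groups. Under vehicle, knockout against wild type gave 0 of 36 members past an adjusted p of 0.05 in limma, as it gave 0 of all 12907 genes (percent called 0). The same count, 0 members beside 0 genes (percent called 0), came from knockout against wild type under PD0325901, from PD0325901 against vehicle in wild type and in the knockout, and from the interaction of genotype and inhibitor. In the first 4 of these comparisons 251, 605, 115 and 382 genes had an unadjusted p under 0.05 and in the interaction 1.71% of genes did, with 0 members among them in each, and voom, limma's method for counts, run on recovered reads also called 0 genes. No member had groups that did not overlap, in comparisons where 1.46%, 2.28%, 0.659% and 1.7% of all genes did. Spry4, the target of the knockout, did not pass in limma either. Under vehicle its log2 difference between knockout and wild type was -1.01, with an adjusted p of 0.9998 in limma. Under PD0325901 its adjusted p was 0.988. A count of 0 in these tests therefore does not show that the members did not change.

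The values of the members, none of which passed, leaned to one side in each comparison. Under vehicle the median member was at a log2 difference of -0.59 in the knockout relative to wild type, and 3 of 36 members were on the higher side, against a median of -0.01 over all genes. Under PD0325901 the median member was at 0.39 with 32 of 36 on the higher side, against -0.01 over all genes. PD0325901 against vehicle gave a median of -0.40 with 4 members higher in wild type, and 0.55 with 34 higher in the knockout, against 0.01 and 0.00 over all genes. The median interaction was 0.96, with 33 members on the positive side, against -0.01 over all genes. Members measured in the same libraries are not replicates, and comparisons that use the same group share its libraries.

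Acta2 shows how wide the groups were. Its mean was 2244 ± 999.99 FPKM in WT_vehicle, 2267 ± 2242 in WT_PD, 1547 ± 1037.5 in KO_vehicle and 2221 ± 1164 in KO_PD (SD, n = 4 each). The log2 difference was -0.66 ± 0.77 (SE) for knockout against wild type under vehicle, 0.60 ± 0.77 for the same under PD0325901, -0.60 ± 0.77 for PD0325901 against vehicle in wild type and 0.67 ± 0.77 in the knockout. Two-sided exact permutation p-values were 0.314, 0.514, 0.571 and 0.314. In wild type the mean FPKM was slightly higher with PD0325901 although the log2 difference was negative; of the 4 inhibitor libraries 2 lay below all vehicle libraries and 1 above all of them. Without WT_PD 2 both differences that use the wild-type inhibitor group changed sign, to -0.022 for knockout against wild type and to 0.023 for PD0325901 against vehicle.

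**Figure D2:**
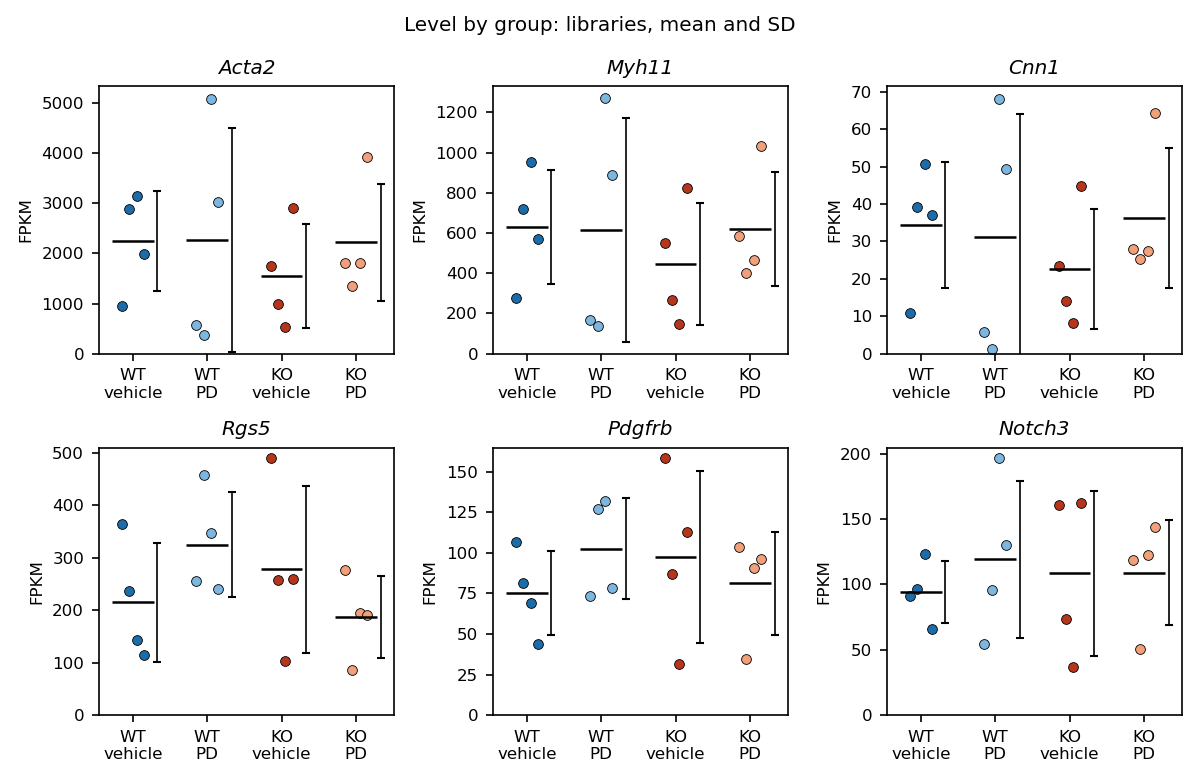
FPKM of Acta2, Myh11, Cnn1, Rgs5, Pdgfrb and Notch3 in the 4 groups, with 1 point per library, a bar at the mean and an error bar of 1 SD that is cut at 0 where it would run below. Points of all groups overlap in each panel, and the 4 Acta2 values of WT_PD reach from 367 to 5095 FPKM.

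Each column name opens with a number from 440 to 455, and replicates 1 and 2 of each group hold its lower 8 values. The names also carry a running S number in the same order and an SP number in a different one, in which KO_vehicle 1 and KO_PD 1 stand apart from the other 14 libraries. Acta2 in that pair, 1751 and 1803 FPKM, was near the middle of the range. Acta2 had a median of 1167 FPKM in the libraries numbered 440 to 447 (range 367 to 2890.4) and of 2973 in those numbered 448 to 455 (range 538 to 5095). Knockout minus wild type under PD0325901 was 1.77 on the log2 scale in the lower numbers and -0.56 in the higher ones, and PD0325901 minus vehicle in wild type was -1.85 and 0.65, each from 2 libraries against 2. Under vehicle, knockout minus wild type was -0.33 and -0.9995, and PD0325901 minus vehicle in the knockout was 0.24 and 1.09. What the numbers stand for is not given in the labels. Any part of theirs in these differences was not tested.

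Nearly all members followed Acta2 from library to library. In a limma model with a mean for each group and log2 Acta2 as a covariate, 33 of the 35 other members rose with Acta2, beside 32.1% of the 12906 genes tested (a further 21.7% fell with it). The slope, in log2 units of the gene per log2 unit of Acta2, had a median of 0.83 over the 35 members and of 0.01 over all genes. All 31 members outside the vascular role were called, with slopes from 0.29 for Srf to 1.22 for Cnn1. The 95% interval lay wholly below 1, which would be a change in strict proportion, for 30 members, held 1 for 4 and lay above 1 for Cnn1, whose interval also held 1 without WT_PD 2. Rgs5 (slope 0.04, 95% interval -0.31 to 0.40, adjusted p = 0.832 in limma) and Pdgfrb (0.19, -0.13 to 0.52, adjusted p = 0.292) did not pass. In the test against a slope of 0, the call of all 35 members stayed the same in every alternative setting tried, though the sign of the uncalled Rgs5 slope did not.

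**Figure D3:**
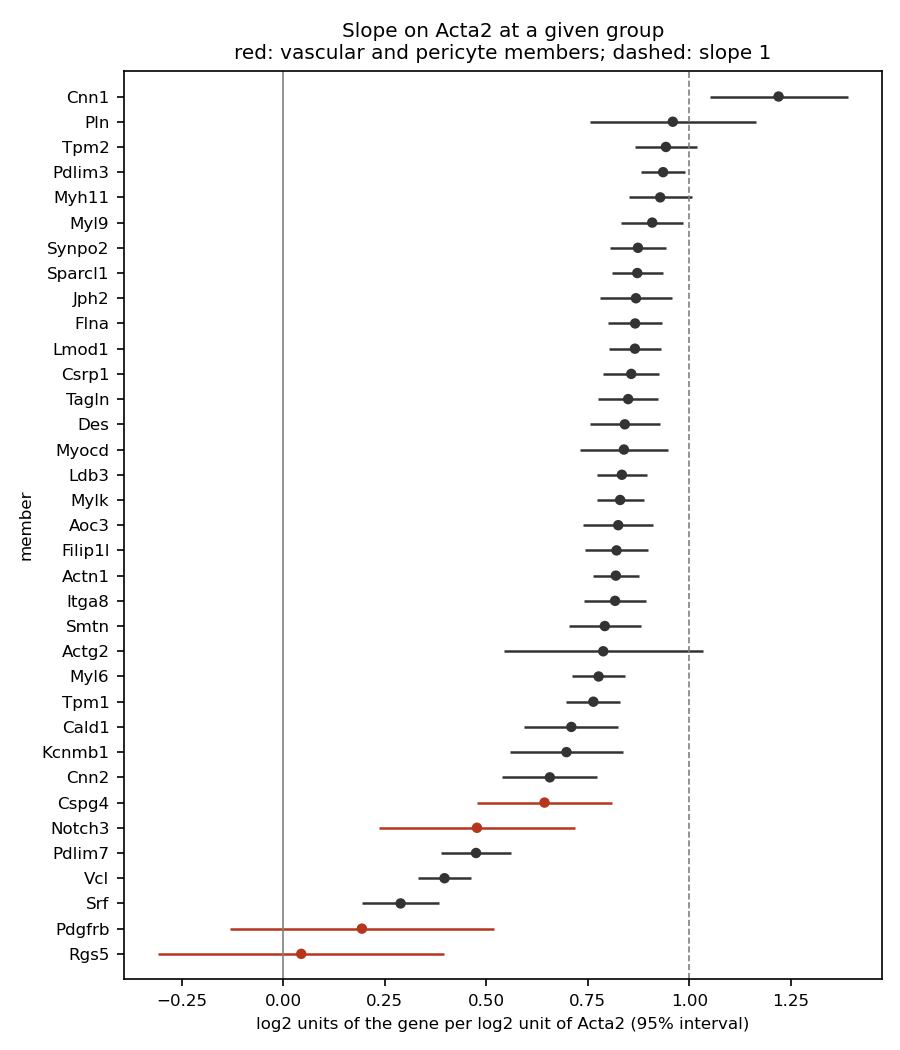
Slope of each of 35 members on Acta2 at a given group (horizontal axis, log2 units of the gene per log2 unit of Acta2, point and 95% interval), with the 4 vascular and pericyte members in red and a dashed line at slope 1. The interval of Cnn1 lies above 1, those of Rgs5 and Pdgfrb reach across 0, and those of the other members lie above 0.

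Correlation called the same 33 members by its adjusted permutation p, while a stricter definition of a close follower held for fewer. A close follower was defined as a gene with a Pearson r and a Spearman rho with Acta2 of at least 0.9 over the 16 libraries on the log2(FPKM + 0.5) scale. Of the 35 members 28 were close followers, beside 7.81% of all genes. Their r ran from 0.926 to 0.995 and their rho from 0.929 to 0.994. Each had a two-sided permutation p of 1e-05, the smallest that 100000 resamples can give. The adjusted permutation p of r was 9.25e-05 over 12906 relations. The 28 were picked by r and rho in these same libraries, so these p-values add no support to the list. By the adjusted permutation p of r (threshold 0.05), 33 of 35 members were correlated, beside 52.5% of all genes. Without the 2 libraries farthest from the median Acta2, WT_PD 2 and KO_vehicle 3, the lowest r among the 28 was 0.913. Within the lower 8 library numbers the lowest r was 0.882, within the higher 8 it was 0.953, and within wild type and knockout 0.935 and 0.932. By rho the higher 8 were weaker, down to 0.762 for Myocd, Kcnmb1 and Vcl. Of all 35 members, 23 met both limits there. The 7 other members were Pln (r 0.930, rho 0.824), Cspg4 (0.896, 0.915), Srf (0.860, 0.894), Actg2 (0.838, 0.827), Notch3 (0.701, 0.738), Pdgfrb (0.224, 0.132) and Rgs5 (-0.06, -0.14). Vcl, at r 0.926 and rho 0.929, was the close follower of lowest r, while Cspg4 (by r) and Srf (by both measures) lay nearest outside the definition.

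Among the motor genes, Myh11 (ENSMUSG00000018830, GRCm38 chromosome 16, 14194535 to 14291372, minus strand) encodes the heavy chain that generates force. It stood at 277, 721, 951 and 571 FPKM in WT_vehicle 1 to 4, at 167, 137, 1270.4 and 889 in WT_PD, at 548, 266, 146 and 825 in KO_vehicle, and at 582, 402, 464 and 1033 in KO_PD. The highest and the lowest library were those of Acta2, and the ratio of Myh11 to Acta2 stayed between 24.9% and 37.3%. Its slope was 0.93 ± 0.04 (SE, adjusted p = 8.85e-11 in limma) with r 0.992. The light chains Myl9 and Myl6 had slopes of 0.91 and 0.78 and the light chain kinase Mylk 0.83, so that all 4 motor genes were close followers.

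The 8 thin filament members all rose with Acta2 and all were close followers. Cnn1, calponin, which holds back the myosin ATPase, was at 10.7, 39.1, 50.6 and 36.9 FPKM in WT_vehicle 1 to 4, at 5.84, 1.22, 68.1 and 49.4 in WT_PD, at 23.3, 14.1, 8.21 and 44.7 in KO_vehicle, and at 27.99, 25.2, 27.5 and 64.3 in KO_PD. This 55.9-fold span was the widest of the 36 members, and its lowest value rested on 96 recovered reads. Its slope was 1.22, with a 95% interval of 1.05 to 1.39, but without WT_PD 2 it was 1.07, with an interval of 0.948 to 1.19 that holds 1. The interval also held 1 with the replicate block (0.935 to 1.39) and with a term for the lower 8 or higher 8 library numbers (0.965 to 1.37). It did so too without WT_PD 2 and KO_vehicle 3 together (0.973 to 1.23, a setting chosen after the data were seen). Slopes were 0.94 for the tropomyosin Tpm2 and 0.76 for Tpm1, which cover the groove of the actin filament, 0.87 for Lmod1, which nucleates smooth muscle filaments, and 0.85 for Tagln. Smoothelin (Smtn) had 0.79, caldesmon (Cald1), an inhibitor of the actin and myosin interaction, 0.71, and Cnn2, a calponin also made outside muscle, 0.66.

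**Figure D4:**
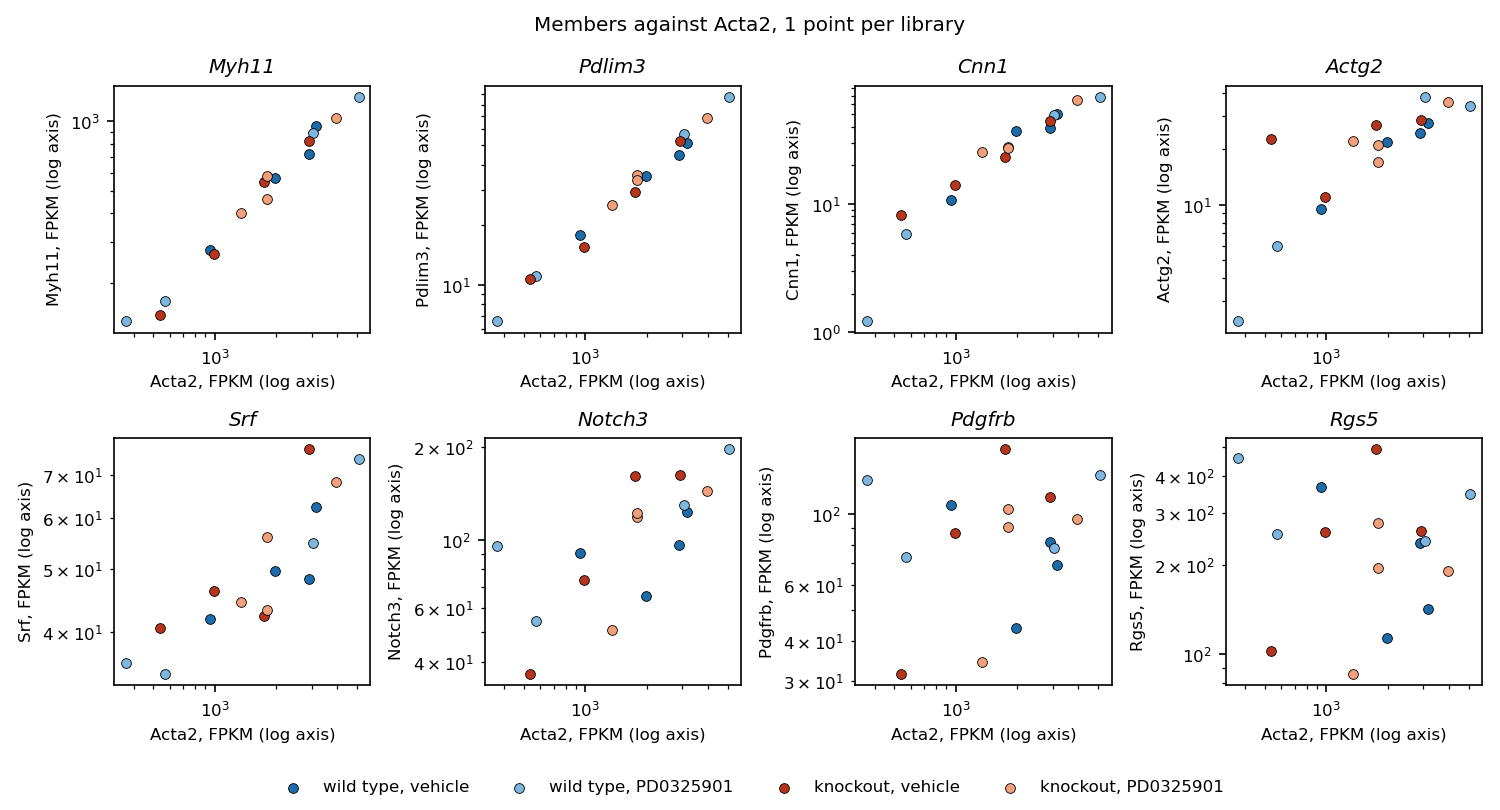
FPKM of 8 members (vertical axes, log scale) against FPKM of Acta2 (horizontal axes, log scale), with 1 point per library coloured by group. Myh11, Pdlim3 and Cnn1 lie along a line, Actg2 has 1 knockout library with vehicle far above it, Srf is shallow, and Notch3, Pdgfrb and Rgs5 spread increasingly.

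The 11 members of intermediate filaments, dense bodies and adhesions also all rose with Acta2 and were all close followers, but fell into a steep and a shallow set. Pdlim3, a PDZ and LIM domain protein of the dense body, had the highest r of all 12906 genes, 0.995, with a slope of 0.94 ± 0.03 (SE), and its ratio to Acta2 varied only 1.28-fold. Slopes lay between 0.82 and 0.87 for the intermediate filament desmin (Des), the dense body protein Synpo2, the crosslinkers Actn1 and Flna, the LIM protein Csrp1, Ldb3, Filip1l and the integrin subunit Itga8. Pdlim7, a relative of Pdlim3, and vinculin (Vcl), which joins actin to cell adhesions, were shallower at 0.47 and 0.40. Vcl spanned 3.22-fold, from 24.7 to 79.7 FPKM, while Acta2 spanned 13.9-fold.

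The 2 regulators differed. Myocd, myocardin, the coactivator that is made mainly in muscle, rose from 1.84 FPKM in WT_PD 2 to 24.2 in WT_PD 3 with a slope of 0.84 ± 0.05 (SE) and r 0.971. Srf, its DNA-binding partner, which most cells make, was at 42.0, 48.2, 62.6 and 49.8 FPKM in WT_vehicle 1 to 4, at 34.5, 35.9, 74.0 and 54.9 in WT_PD, at 42.3, 46.3, 40.5 and 76.7 in KO_vehicle, and at 43.3, 44.5, 56.2 and 68.4 in KO_PD. It spanned 2.23-fold, the narrowest range of the 36, and still rose with Acta2 (slope 0.29, 95% interval 0.19 to 0.38, adjusted p = 8.31e-05 in limma).

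The 5 membrane, calcium and secreted members all rose with Acta2. Phospholamban (Pln), which restrains the calcium pump of the sarcoplasmic reticulum, had a slope of 0.96 with a wide interval, 0.75 to 1.16, and ran from 1.37 to 42.0 FPKM. Sparcl1 and junctophilin 2 (Jph2), which ties the reticulum to the cell membrane, both had 0.87. The amine oxidase Aoc3 had 0.83 and Kcnmb1, the subunit that tunes the calcium-activated potassium channel of smooth muscle, 0.70. Pln alone of the 5 was not a close follower, by its rho.

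Actg2, the enteric smooth muscle actin, differed from Acta2 in 1 library. It stood at 9.43, 24.4, 27.5 and 21.8 FPKM in WT_vehicle 1 to 4, at 6.02, 2.34, 34.1 and 38.1 in WT_PD, at 26.9, 11.04, 22.6 and 28.5 in KO_vehicle, and at 21.1, 22.04, 17.0 and 36.1 in KO_PD. KO_vehicle 3 had the second lowest Acta2 but a middling Actg2, which was there 4.20% of Acta2 against a median of 1.03% over the libraries. With that library r was 0.838, without it 0.944, and the slope was called either way. This is also the library of high spermatid genes, whose part in the Actg2 value was not tested. In the best-scoring local alignment of the main Acta2 and Actg2 transcripts, 84.3% of the 1122 aligned bases were identical. The longest identical run shared by both transcripts was 29 bases. How reads shared by both were counted is not given in the sources used here, so the low Actg2 level is uncertain.

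The CArG box was searched in the 250 bases before each start site, since it is the element by which SRF and myocardin are known to act on these genes. Of the 36 members 29 matched a promoter in RefSeq (build GRCm38.p6), and 7 of them (24.1%) held the box, beside 1.62% of the 27025 genes with a promoter there (1.47% of 32851 promoters). The pattern reads the same on both strands, so 1 search covers both. Members with the box were Myl9, Myl6, Cnn2, Vcl, Ldb3, Filip1l and, with 2 boxes, Srf itself. A match is a description of these letters and no evidence that SRF binds there, and no match says only that the letters are not in this window. The 7 are shown because they span the range of responses, from Myl9 (slope 0.91) to Vcl (0.40) and Srf (0.29), with 20 bases on each side and the box in capitals, 5′ to 3′ on the strand of the gene. The runs lie, in the order shown, at chr2:156775283-156775332 (plus strand), chr10:128493030-128493079 (minus), chr10:79988524-79988573 (plus), chr14:20929151-20929200 (plus), chr14:34588687-34588736 (minus), chr16:57549160-57549209 (plus) and chr17:46556215-46556264 (minus).
Myl9: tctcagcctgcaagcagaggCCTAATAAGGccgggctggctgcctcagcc
Myl6: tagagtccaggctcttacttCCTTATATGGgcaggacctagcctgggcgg
Cnn2: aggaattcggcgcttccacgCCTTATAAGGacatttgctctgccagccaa
Vcl: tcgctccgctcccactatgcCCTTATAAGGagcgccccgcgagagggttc
Ldb3: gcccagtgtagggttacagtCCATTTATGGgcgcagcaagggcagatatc
Filip1l: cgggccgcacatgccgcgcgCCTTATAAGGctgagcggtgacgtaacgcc
Srf: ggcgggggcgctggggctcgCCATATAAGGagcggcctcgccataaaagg

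Cnn2, Vcl and Filip1l carried the identical box, with slopes on Acta2 of 0.66, 0.40 and 0.82. The second box of Srf is the last 10 letters of its run, in lower case. The RefSeq starts need not be the ends of the GENCODE genes: that of Acta2 is base 34255373, inside a gene that opens at 34255590, that of Myl6 lies 1136 bases inside and that of Filip1l 196149, while the others shown lie 0 to 75 bases inside. Acta2 itself held no complete box in this window but 2 versions with 1 changed letter in the core of 6. At least 1 such version stood in 4 of 29 members (13.8%), Acta2, Myl9, Pdlim3 and Jph2, beside 8.33% of all genes with a promoter there. Those of Acta2 are shown for comparison, at chr19:34255428-34255477 and chr19:34255378-34255427 (minus strand), the changed box in capitals.
Acta2, farther from the start: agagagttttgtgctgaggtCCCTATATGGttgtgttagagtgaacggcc
Acta2, nearer to the start: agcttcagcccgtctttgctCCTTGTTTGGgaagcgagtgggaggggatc

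Of the 4 vascular members, Notch3 and Cspg4 rose with Acta2, while Rgs5 and Pdgfrb did not pass. Rgs5 (ENSMUSG00000026678, GRCm38 chromosome 1, 169655501 to 169695813, plus strand) stood at 365, 237, 142 and 114 FPKM in WT_vehicle 1 to 4, at 255, 459, 347 and 240.3 in WT_PD, at 489.9, 258, 102 and 259.8 in KO_vehicle, and at 277, 86.1, 195 and 191 in KO_PD. WT_PD 2, which had the lowest Acta2, had the second highest Rgs5, and the level of Rgs5 ran from 4.51% of Acta2 in WT_vehicle 3 to 125% in WT_PD 2. Over the 16 libraries r with Acta2 was -0.06 (permutation p = 0.827, adjusted 0.864) and rho was -0.14 (permutation p = 0.603, adjusted 0.677). Without WT_PD 2 and KO_vehicle 3 r was -0.04. The interval of its slope, -0.31 to 0.40, overlapped those of Srf, Vcl and Pdlim7 among the non-vascular members and lay wholly below the others, Actg2 included (0.54 to 1.03).

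Pdgfrb (ENSMUSG00000024620) was at 107, 81.5, 69.0 and 43.9 FPKM in WT_vehicle 1 to 4, at 73.5, 127, 132 and 78.3 in WT_PD, at 159, 86.8, 31.7 and 113 in KO_vehicle, and at 104, 34.5, 90.9 and 96.0 in KO_PD. Its highest and second lowest libraries, KO_vehicle 1 and KO_PD 2, were the highest and the lowest of Rgs5. With Rgs5 its r was 0.929 and its rho 0.891, and 0.978 in what group and Acta2 left. With Acta2 its r was 0.224 (permutation p = 0.403, adjusted 0.482) and its rho 0.132 (permutation p = 0.625, adjusted 0.697).

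Notch3 (ENSMUSG00000038146) lay between both patterns. It was at 90.8, 96.1, 123 and 65.8 FPKM in WT_vehicle 1 to 4, at 54.5, 95.6, 197 and 129.9 in WT_PD, at 161, 73.7, 36.6 and 162 in KO_vehicle, and at 119, 50.7, 122 and 144 in KO_PD. It rose with Acta2 (slope 0.48, 95% interval 0.24 to 0.72, adjusted p = 0.0028 in limma), with an r of 0.701 to Acta2, 0.588 to Rgs5 and 0.814 to Pdgfrb. In what group and Acta2 left, its r to Rgs5 was 0.884. Cspg4 (ENSMUSG00000032911) was at 18.5, 25.3, 30.7 and 17.4 FPKM in WT_vehicle 1 to 4, at 10.4, 14.3, 53.3 and 31.6 in WT_PD, at 22.2, 13.4, 6.86 and 40.1 in KO_vehicle, and at 21.2, 15.9, 24.8 and 46.8 in KO_PD. It was the vascular member nearest to the contractile ones, with a slope of 0.64 ± 0.08 (SE, adjusted p = 9.81e-06 in limma), an r of 0.896 to Acta2 and an r of 0.246 to Rgs5, which was 0.673 in what group and Acta2 left.

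For each vascular member r with Acta2 was lower in the lower 8 library numbers than in the higher 8. Rgs5 had r -0.26 with Acta2 in the lower 8 numbers and 0.74 in the higher 8, Pdgfrb -0.10 and 0.84, Notch3 0.36 and 0.92, and Cspg4 0.82 and 0.97, n = 8 each. By genotype, r of Rgs5 was -0.43 in wild type and 0.41 in the knockout. These differences between subsets were not tested. Leaving out single libraries moved r of Rgs5 between -0.26 and 0.17 and r of Pdgfrb between 0.017 and 0.43.

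A further model, chosen after these values were seen, added log2 Rgs5 to group and Acta2. At a given Acta2, 8 of 34 members varied with Rgs5: 6 rose, beside 5.92% of 12905 genes, and 2 fell, beside 1.28%. Pdgfrb rose by 0.91 ± 0.06 log2 units per unit of Rgs5 (SE, adjusted p = 4.85e-07 in limma) and Notch3 by 0.60 ± 0.09 (adjusted p = 0.000702). Both were called again without each library in turn, at 0.87 to 0.93 for Pdgfrb and 0.53 to 0.65 for Notch3. Cald1 (0.23), Aoc3 (0.17), Tpm1 (0.14) and Vcl (0.13) rose by small amounts, Cnn1 (-0.35) and Ldb3 (-0.13) fell, and all 6 lost their call in at least 1 setting, so the count of 8 rests on few libraries. It was 2 without KO_vehicle 3, 3 without KO_PD 2, WT_PD 2, WT_PD 4 or WT_vehicle 4, 4 without KO_vehicle 1 or WT_vehicle 1, and 5 without KO_PD 1. Cspg4 stood at 0.32 ± 0.10 with an adjusted p of 0.0686, and Actg2 at -0.45 ± 0.15 with 0.0811.

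Other genes known from pericytes and vascular smooth muscle lay with Rgs5, as did some genes of other lists given below. Of 10 listed markers that are no members, 10 rose with Rgs5 at a given Acta2, with coefficients from 0.42 to 1.46, beside 5.92% of all genes. In the fit without Rgs5, 3 of the 10 rose with Acta2, a share near the 32.1% of all genes. By highest mean level these include Rgs4, a relative of Rgs5 (0.57 on Rgs5, 0.34 on Acta2), the guanylate cyclase subunits Gucy1a1 (0.42 and 0.62) and Gucy1b1 (0.59 and 0.47), and the mitochondrial protein Ndufa4l2 (0.89 and 0.24, the second not called). The largest coefficients on Rgs5, named after their values were seen, belonged to Abcc9 (1.46) and Kcnj8 (1.39), the subunits of the potassium channel of pericytes, and to Steap4 (1.27). Their slopes on Acta2 were -0.28, -0.24 and -0.17, none called.

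**Figure D5:**
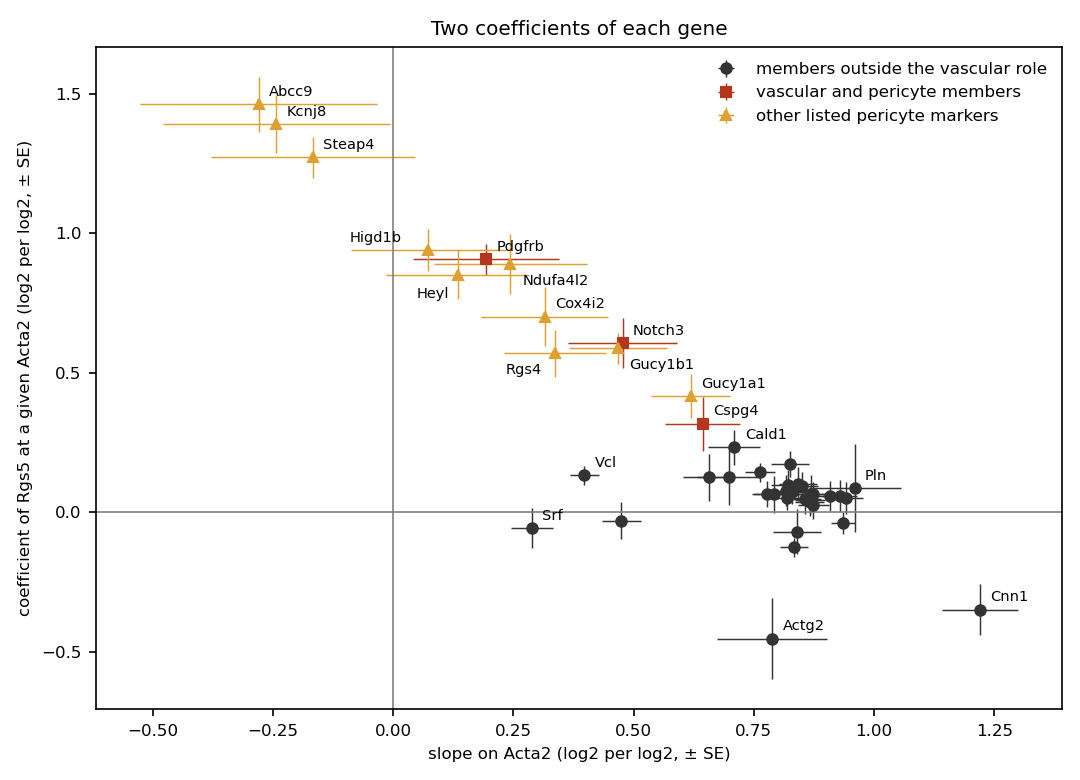
Coefficient on Rgs5 at a given group and Acta2 (vertical axis) against the slope on Acta2 at a given group (horizontal axis), both in log2 units per log2 unit with ± SE, for 31 members outside the vascular role, 3 vascular members and 10 other listed pericyte markers. Contractile members gather at slopes near 0.8 and coefficients near 0, pericyte markers reach from Gucy1a1 (0.62, 0.42) up to Abcc9 (-0.28, 1.46), and Pdgfrb and Notch3 lie among them.

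No member passed the test for variation with the endothelial genes. Of 18 listed endothelial markers 12 passed the filter, and the sum of the list was 60.8 to 114 FPKM in wild type and 67.3 to 116 in the knockout. Robo4 and Sox17 were at 0 in some libraries, and no marker was at 0 in all. With the mean of the 12 added to group and Acta2, 0 of 35 members were called by limma, beside 0.807% of 12894 genes higher and 0.0465% lower. At an unadjusted p under 0.05 in limma there were 2 of 35 members, Pdlim3 (0.29) and Itga8 (-0.48), beside 13.8% of all genes. Voom called 0 members. The coefficients were -1.34 ± 0.88 (SE) for Rgs5, -1.17 ± 0.82 for Pdgfrb, -0.49 ± 0.64 for Notch3 and -0.19 ± 0.45 for Cspg4, and all 4 changed sign without KO_vehicle 3. By highest mean level the list held Esam (26.1 FPKM), Plvap, Eng and Erg, of which Esam and Eng rose with Acta2 (slopes 0.60 and 0.30), Erg fell (-0.24) and Plvap did not pass (-0.017). Over the 12 tested genes 2 rose with Acta2, beside 32.1% of all genes, and 1 fell, beside 21.7%. The other 9 did not pass, and the median slope of the 12 was -0.06. On Rgs5 at a given Acta2 the 12 split. Emcn (0.74) and Esam (0.32) rose, beside 5.92% of all genes. Kdr (-0.30), Egfl7 (-0.26) and Sox18 (-0.47) fell, beside 1.28%, and 7 did not pass. These 5 were named after their values were seen.

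Further listed genes of the contractile machinery rose with Acta2 to varying degrees, with list medians from 0.07 to 0.59 beside 0.83 for the members. Against 32.1% of all genes that rose, all 15 tested genes of contraction signalling did (median slope 0.39), among them the myosin phosphatase subunits Ppp1r12a (0.54) and Ppp1r12b (0.81) and Irag1 (0.75), a target of the cGMP kinase. Of 20 dense plaque and focal adhesion genes 19 rose (median 0.46), with Itgb1 at 0.41, Actn4 at 0.55, Tln1 at 0.53 and Ilk at 0.46. Of 8 membrane genes 7 rose (median 0.59), with the caveola proteins Cavin1 at 0.82, Cav1 at 0.77 and Ehd2 at 0.68 and the sarcoglycan Sgca at 0.94. Of 13 other actins, myosins and thin filament genes, most of which all cells make, 6 rose and 1, the nonmuscle myosin Myh10, fell (median 0.07). The cytoplasmic actins Actb and Actg1 had slopes of 0.32 and 0.15, Cnn3 had 0.16 and Tagln2 0.07, the last not called. Of 11 genes around SRF 7 rose (median 0.20), with Klf4 at 0.53, Mef2d at 0.28, Foxo4 at 0.09 and Hmgb1 at 0.01, the last not called. With Rgs5 at a given Acta2, 5 of 8 membrane, 6 of 20 dense plaque and 5 of 15 contraction signalling genes rose, beside 5.92% of all genes. Of the 13 other actins, myosins and thin filament genes 2 rose, and of the 11 around SRF 2. The dense plaque gene Palld fell, beside 1.28% of all genes.

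Outside the set, the 10 genes of highest r with Acta2 were Mustn1, Pbxip1, Iqgap1, Plpp3, Entpd1, Col4a6, Palld, Filip1, Eml1 and Ntn1, with r from 0.992 to 0.995 over 16 libraries. Mustn1, a small nuclear protein of muscle and skeleton, had the highest mean of these at 154 FPKM and the highest r, while Eml1, a microtubule protein, ranged from 3.31 to 24.4 FPKM. Pdlim3 was the only member with a higher r than Mustn1.

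Of 10 listed markers of undifferentiated spermatogonia 8 fell with Acta2, beside 21.7% of all genes, with a median slope of -0.17, among them Dazl (-0.24), Zbtb16 (-0.11) and Ddx4 (-0.25), while Uchl1 (-0.06) did not pass. Their summed level was 660 to 1045 FPKM, beside 1176 to 12118 for the 10 genes listed as peritubular myoid markers, all of which are members. Arterioles carry smooth muscle too, and whether these transcripts came from myoid or vascular cells was not tested. FPKM is a relative level whose scaling was not given, and its sum over the listed genes ran from 206108 to 276968 between libraries. A change in muscle transcripts and a change in the others cannot be told apart in such relative values. Spry4 itself had a slope on Acta2 of 0.23 ± 0.06 (SE, adjusted p = 0.00421 in limma). Listed stromal fibroblast genes summed to 32.5 to 69.9 FPKM, Sertoli genes to 9.18 to 29.0 and macrophage and leukocyte genes to 3.75 to 14.9, with Adgre1, Lyz2, C1qa, C1qb and C1qc at 0 in some libraries. Their part in the member levels was not tested.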

How the data were processed

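The authors deposited 1 table of FPKM values for the 16 libraries of polyA RNA, which per the labels were prepared with stranded KAPA chemistry. The submitters' processing notes list FastQC, STAR 2.7.10a, edgeR 4.0.14 and the builds mm10 and GRCm39 without saying what each was used for. Which program counted reads, and the gene lengths and scaling behind the values, were not given in the sources used here. Gene positions and exon lengths came from GENCODE M21 (GRCm38). The divisor behind the FPKM, read from low values, was 23360100 to 36613300, and 92.9% to 94.3% of values under 100 reads came within 0.1 of whole reads.

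Values were tested as log2(FPKM + 0.5), which understates changes near 0, with limma 3.58.1 (R 4.3.3), trended empirical Bayes and Benjamini-Hochberg adjustment over the 12907 genes with at least 1 FPKM in 4 libraries (3476 were left out). Models had 4 group means, alone or with log2 Acta2, with Acta2 and the endothelial mean, or with Acta2 and Rgs5. Correlations used 100000 permutations (numpy 2.4.6), with ranks from scipy 1.17.1. The genotype comparison under vehicle, the relation to Acta2 and the correlation were checked on simulated data. The simulated spread in the limma check was that left after group and Acta2, while the genotype comparison itself leaves Acta2 out. That check therefore does not give the power of the group comparisons for genes that follow Acta2. Alternatives were other pseudocounts, no filter, other scalings, a replicate block, a library-number term, voom on recovered reads and leaving out libraries.

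Named genes were all members, Spry4, the 10 other genes of highest r with Acta2, and up to 4 per further list by highest mean FPKM. Members, lists and tests were chosen with earlier results of these data known.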

Additional observations from a re-analysis of the deposited data

Results flagged for a closer look

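Each of the 36 members was checked in each of the 4 groups for a library far from the other 3, by Dixon's ratio of gap to range at its 95% critical value. Of 144 such checks 2 passed, where chance gives about 1 in 20. Cnn1 was at 64.26 FPKM in KO_PD 4, while the other 3 libraries of that group lay between 25.24 and 27.99, and Acta2 was also highest in KO_PD 4. Pdgfrb was at 34.53 FPKM in KO_PD 2, while the others lay between 90.86 and 103.8, and Rgs5 was also lowest there.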

How the results depend on the processing

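The group comparisons gave 0 members and 0 genes in limma in every setting. The 33 calls on Acta2 held in every setting, and close followers among the members numbered 23 (higher library numbers) to 31 (wild type only), while those among all genes numbered 1008, 1627 in wild type only, 712 in the lower library numbers and 845 to 1107 without single libraries. Voom on recovered reads called 6755 genes on Acta2, beside 6942. Signs turned for small or uncertain values. Without WT_PD 2, and without both libraries of most extreme Acta2 (for the limma fits chosen after the data were seen), Acta2 was at -0.022 for knockout against wild type under PD0325901 (-0.022 to 1.24 without single libraries) and at 0.023 for PD0325901 against vehicle in wild type (-1.24 to 0.023). The Rgs5 slope on Acta2 was -0.035 with equal sums, -0.091 without KO_vehicle 3 and -0.0042 without KO_PD 2 (-0.091 to 0.17 without single libraries).

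The endothelial fit was unstable: 110 genes became 2 with a pseudocount of 0.1, 275 with 1, 672 with no filter, 3 with median-of-ratios scaling, 1 with equal sums, 1 with the replicate block, 0 with the library-number term, 2 with voom, 0 without the 2 farthest libraries and 0 to 241 without single libraries. Its coefficients turned positive for Rgs5 (0.61 with the replicate block, 0.91 with the library-number term, 0.52 without KO_vehicle 3, 0.21 without the 2 farthest), Notch3 (1.11 and 0.66 for the last 2 settings), Pdgfrb (0.24 with the library-number term, then 0.84 and 0.47) and Cspg4 (0.97 and 0.60). Without single libraries they ran from -1.96 to 0.52 for Rgs5, -0.90 to 1.11 for Notch3, -1.78 to 0.84 for Pdgfrb and -0.38 to 0.97 for Cspg4. The Rgs5 fit called 929 genes, 615 (without KO_vehicle 1) to 942 without single libraries and 600 without the 2 farthest, with 8 members, 2 to 9 and 3. The cause was not tested in any of these.

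Whether replicate numbers pair the libraries was not decided. Of 24 same-numbered pairs 10 had deviations correlated above 0.1 (range -0.53 to 0.73), and pairs of different numbers were not computed for comparison. With the replicate block Cald1 (0.18, adjusted p = 0.275 in limma) and Ldb3 (-0.09, adjusted p = 0.263) lost their calls on Rgs5, and 5954 genes and 33 members followed Acta2, beside 6942 and 33 without it. The depth behind low members was 96 reads (Cnn1), 105 (Actg2) and 109 (Pln), all in WT_PD 2.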

Other observations

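Some listed markers of other testis cells followed Acta2 while their companions did not. Lhcgr, the receptor of luteinizing hormone, ran from 1.77 to 24.1 FPKM with a slope on Acta2 of 0.87 ± 0.04 (SE, adjusted p = 2.92e-10 in limma), whereas Star, the cholesterol carrier of Leydig cells and the only other listed Leydig gene in the table, stayed between 0.573 and 0.956 FPKM. Of the 5 tested Sertoli genes, Gata4, a transcription factor, had a slope of 0.61 and Inha, the inhibin alpha subunit, one of 0.58. Wt1 fell with Acta2 (-0.20, adjusted p = 0.0147), and Clu (0.05) and Aard (0.15) did not pass.

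Of 5 tested stromal fibroblast genes 3 rose with Rgs5 at a given Acta2, beside 5.92% of all genes: the fibrillar collagen genes Col3a1 (0.95 ± 0.11, SE, adjusted p = 6.65e-05 in limma) and Col1a2 (0.53), and the transcription factor Tcf21 (0.31). Col1a1 (-0.05) and Pdgfra (-0.06) did not pass. These genes were named after their values were seen.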
